A study of Mus musculus with 6 samples.

Results

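The genes of ceramide and sphingolipid metabolism were examined in epithelial cells of the mouse small intestine. The set comprised 37 listed genes, matched by symbol to the gene identifiers of the count table, which held 55298 genes in all. Of the 37, 35 had enough reads to be tested, among 15143 tested genes. The libraries were 6 in number and came from mice with collagen-induced arthritis, in which mice immunised with collagen develop inflamed joints, and no untreated mice were included. The 3 control libraries carried the strain label HIF2α +/- F/F with the remark that these were littermates, and the 3 others HIF2α +/- ΔIEC, which the study's design describes as an intestine-specific knockout. HIF2α, encoded by Epas1, is the oxygen-regulated subunit of a transcription factor. What +/- denotes, the driver of the recombination, the deleted exons, and the age and sex of the mice are not given in the sources used here. The labels do not state whether replicate libraries derive from different animals, so p-values measure the spread between these libraries, which may be technical.

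Epas1 (ENSMUSG00000024140.10, GRCm38 chromosome 17, 86753700 to 86833410) had 12.2, 19.4 and 17.5 CPM (read counts scaled to library size) in the controls and 44.2, 25.9 and 31.9 CPM in the libraries labelled knockout. The targeted gene was therefore higher in every library labelled knockout than in any control, against the label, with a log2 fold change of 1.06 (SE 0.28, edgeR quasi-likelihood test, adjusted p = 0.00613), and of 1.0 after correction for GC content and length (adjusted p = 0.0142), or 0.78 (adjusted p = 0.0671) without knockout-labelled library 1. Reads from outside a deleted part do not check a deletion. The direction of every comparison given here is from control libraries to libraries labelled knockout, and rests on those labels. Library totals ran from 28937122 to 38454620 reads. All markers of epithelium and of villus enterocytes were detected, at summed levels of 14220 to 16407 CPM and 18776 to 28652 CPM in the controls and of 8269 to 10782 CPM and 9033 to 10675 CPM in the libraries labelled knockout. Single epithelial markers differed in direction, with Krt8 at 6549 to 9528 against 2556 to 3593 CPM, Vil1 overlapping at 2429 to 3751 against 2109.9 to 2593 CPM, and Epcam at 661, 1040.4 and 1610.2 against 1339, 1593 and 1754 CPM.

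Sphingolipids are built on a long-chain base. Serine palmitoyltransferase makes the base from serine and palmitoyl-CoA, ceramide synthases add a fatty acid, and a desaturase or hydroxylase completes ceramide or phytoceramide. Ceramide is then turned into sphingomyelin or glycosphingolipids, or is cleaved by ceramidases to sphingosine, which can be used again or phosphorylated and broken down. In the intestine, sphingomyelin from the diet is digested at the brush border by the alkaline sphingomyelinase Enpp7 and the neutral ceramidase Asah2, and phytoceramides are abundant in the epithelium.

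Of the 35 tested sphingolipid genes, 9 changed between the groups by both of the fits made, with 3 above and 6 below the controls. Of all tested genes, 12.4% were higher and 9.91% lower by both. Ceramide synthase 6 (Cers6), sphingomyelin synthase 1 (Sgms1) and acid ceramidase (Asah1) were higher, and the desaturase and hydroxylase Degs2, ceramide synthase 2 (Cers2), the synthesis regulator Ormdl3, the lysosomal glycosidases Hexa and Glb1 and ceramide kinase (Cerk) were lower. The fits were made with and without a correction for the GC content and length of the transcripts. A gene was called where the Benjamini-Hochberg adjusted p of the edgeR quasi-likelihood test, over all tested genes, was below 0.05. Without the correction 12 of the 35 genes were higher (34.3%, against 37.2% of all tested genes) and 14 were lower (40.0%, against 29.7%). With it, 3 were higher (8.57%, against 14.3%) and 11 were lower (31.4%, against 15.6%). The share of higher genes was thus near that of all genes before correction and under it afterwards, while the share of lower genes was above it in both. No test of the list as a whole was made. The median log2 fold change of the 35 genes was -0.03 before and -0.45 after correction, against 0.15 and -0.02 over all genes tested.

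Called higher in both fits were 3 of the 35 members (8.57%), against 12.4% of all genes. Called lower in both were 6 of the 35, against 9.91%. Degs2 and Glb1, both lower, were called in both fits and also without each library in turn, a criterion that 3.38% of all genes met as lower and 5.7% as higher, with no higher member among them. Control levels and those of the other group were fully apart for 28 of the 35 members (80.0%), 13 higher and 15 lower, against 72.6% of all tested genes. With GC content and length taken from the longest transcript of each gene in place of the median over its transcripts, 4 of the 9 calls remained: Cers2 at -0.67, Degs2 at -0.62, Asah1 at 0.72 and Glb1 at -1.15 on the log2 scale. Scaling by total counts in place of TMM gave 17 higher and 10 lower members of the 35. Of all 15143 tested genes, 6550 were then higher and 2660 lower, with a median of 0.61.

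**Figure D1:**
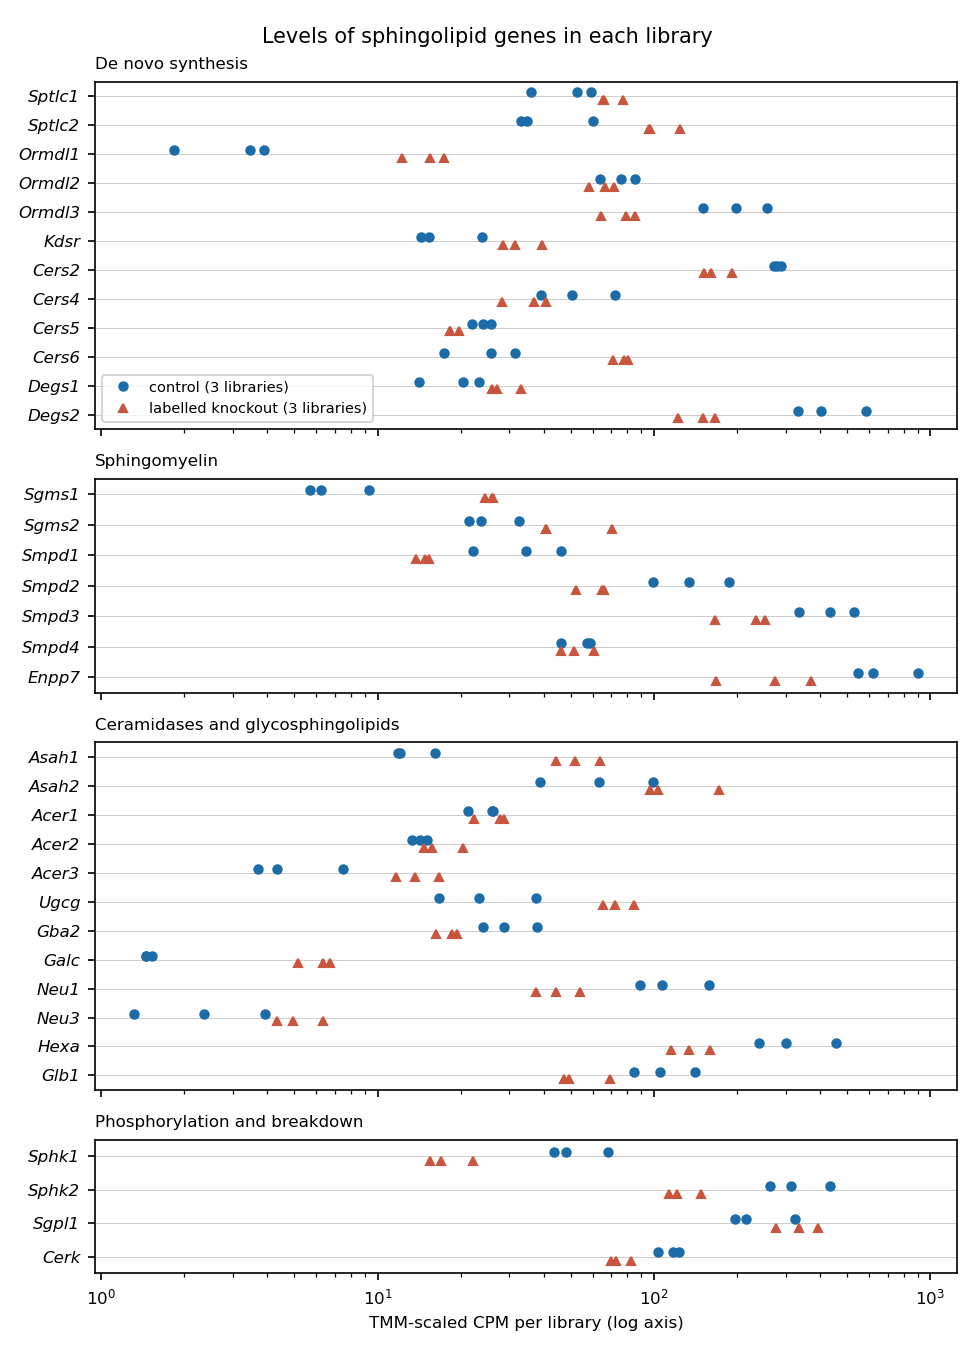
TMM-scaled CPM of the 35 tested sphingolipid genes in each of the 6 libraries, on a log axis, grouped by metabolic step; circles are the 3 control libraries and triangles the 3 libraries labelled knockout. Degs2 lies at 332 to 584 CPM in the controls and 122 to 166 CPM in the libraries labelled knockout, and Cers6 at 17.4 to 31.3 and 71.0 to 80.6 CPM.

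The GC content of the transcripts separated the calls made without correction. All 12 higher members had a GC content of 40.1% to 49.7% and all 14 lower members one of 52.2% to 60.8%, while the 9 members not called lay from 46.9% to 52.7%. Over the 35 members, which share the same 6 libraries, the log2 fold change and GC content had a Pearson r of -0.90 and a Spearman rho of -0.89, and after correction -0.43 and -0.38. Over all tested genes these were -0.71 and -0.74, and -0.04 and -0.09 after correction. Of the 5950 tested genes with a GC content in the range of the higher members, 70.0% were higher and 4.37% lower, and of the 6027 in the range of the lower members 5.54% were higher and 57.7% lower. The slope of log2 CPM on GC content was 0.96, 0.93 and 0.44 per 10% GC in the controls against -0.79, -0.89 and -0.64 in the libraries labelled knockout. GC content and group cannot be told apart in this design. The correction also removes any true difference that follows GC content or length.

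**Figure D2:**
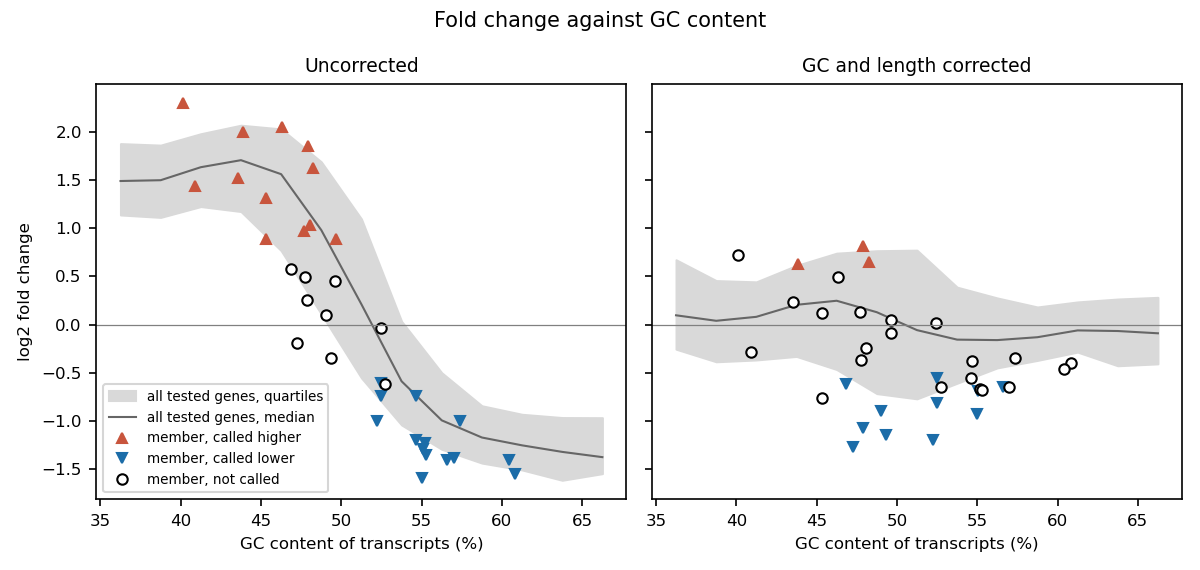
Log2 fold change of the 35 members against the GC content of their transcripts, before (left) and after (right) correction, over the median (line) and quartiles (band) of all tested genes in GC bins; upward triangles are members called higher, downward triangles called lower, open circles not called. Before correction the members fall with GC content, as the median line does. Ormdl1 lies at 40.1% GC and 2.29 at the upper left, and Sphk1 at 60.8% GC and -1.55 at the lower right. Both, like some other members, lie outside the band.

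In de novo synthesis, 12 of 14 listed genes were tested. Uncorrected, 4 were higher (33.3%, against 37.2% of all tested genes) and 3 lower (25%, against 29.7%). Corrected, 1 was higher (8.33%, against 14.3%) and 6 lower (50%, against 15.6%). The median log2 fold change was 0.15 uncorrected and -0.58 corrected. Cers6 was higher and Cers2, Degs2 and Ormdl3 were lower in both fits. The base-forming enzyme serine palmitoyltransferase was represented by Sptlc1 and Sptlc2, subunits that form the core of the enzyme. Sptlc1 had 35.8, 52.8 and 59.2 CPM in the controls and 65.6, 65.8 and 77.3 CPM in the libraries labelled knockout, and was not called in either fit (0.50, adjusted p = 0.0884; corrected -0.37, adjusted p = 0.166). It passed the uncorrected threshold without control library 3 (0.61, adjusted p = 0.0268). Sptlc2 had 34.7, 33.0 and 60.02 against 96.0, 124 and 97.0 CPM, and was higher without correction only (1.31, SE 0.27, adjusted p = 0.00147; corrected 0.13, SE 0.18, adjusted p = 0.628). Sptlc3, an alternative subunit, had 0 reads in all 6 libraries, which allows a level of up to 0.0727 to 0.104 CPM by counting error. Kdsr, which reduces the first product of the pathway, was higher without correction (0.89, SE 0.27, adjusted p = 0.0128), but not without control library 2 (0.71, adjusted p = 0.0572) or knockout-labelled library 3 (0.73, adjusted p = 0.0576), with 0.04 after correction (SE 0.21, adjusted p = 0.892).

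The ORMDL proteins inhibit serine palmitoyltransferase. Ormdl3 (ENSMUSG00000038150.7, chromosome 11, 98581256 to 98587368) had 256, 197 and 151 CPM in the controls and 64.3, 79.2 and 85.2 CPM in the libraries labelled knockout. Every control lay above every library labelled knockout, and the gene was lower by both fits (-1.40, SE 0.25, adjusted p = 0.000626; corrected -0.64, SE 0.18, adjusted p = 0.0258). It missed the corrected threshold without control library 1 (-0.52, adjusted p = 0.0568), control library 2 (-0.70, adjusted p = 0.0602), knockout-labelled library 1 (-0.54, adjusted p = 0.111) or knockout-labelled library 2 (-0.67, adjusted p = 0.0757), and with the longest transcript (-0.38, adjusted p = 0.14). Ormdl1 went the other way without correction, from 3.88, 1.84 and 3.46 CPM to 17.3, 15.4 and 12.2 CPM (2.29, SE 0.34, adjusted p = 0.000302; corrected 0.72, SE 0.29, adjusted p = 0.0862). It passed the corrected threshold without control library 1 (0.98, adjusted p = 0.0375). Ormdl2 had overlapping levels of 63.9, 75.7 and 85.2 against 58.1, 66.7 and 71.7 CPM, with -0.19 uncorrected (adjusted p = 0.445), and was lower only after correction (-1.26, SE 0.18, adjusted p = 0.00185). That value is uncertain, since 66.7% of the exonic bases of Ormdl2 are shared with Dnajc14 on the opposite strand and the strand setting of the counting is not known from the sources used here.

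Ceramide synthases differ in the length of the fatty acid they attach, with Cers2 preferring very long chains and Cers5 and Cers6 palmitoyl chains. Cers2 (ENSMUSG00000015714.11, chromosome 3, 95314791 to 95323599) had 279, 288 and 272 CPM in the controls and 152, 161 and 192 CPM in the libraries labelled knockout. The controls lay close together and above all the others, and Cers2 was lower in both fits (-0.73, SE 0.20, adjusted p = 0.00769; corrected -0.55, SE 0.16, adjusted p = 0.0279). Without knockout-labelled library 1 the gene missed the threshold both uncorrected (-0.66, adjusted p = 0.0525) and corrected (-0.48, adjusted p = 0.122), and the corrected call was also lost without control library 2 (-0.55, adjusted p = 0.09) or knockout-labelled library 2 (-0.52, adjusted p = 0.111). Cers6 (ENSMUSG00000027035.10, chromosome 2, 68861441 to 69114282) had 25.8, 17.4 and 31.3 against 80.6, 77.7 and 71.0 CPM. Its groups stood far apart, and it was higher in both fits (1.62, SE 0.26, adjusted p = 0.000398; corrected 0.65, SE 0.20, adjusted p = 0.0362). The corrected call of Cers6 held without control library 1 only, and without any other library the adjusted p lay from 0.0635 to 0.127. With the longest transcript its corrected value was 0.02 (adjusted p = 0.947). Cers4, with 72.2, 50.5 and 39.1 against 36.9, 28.3 and 40.7 CPM, was not called (-0.61, adjusted p = 0.0653; corrected -0.64, adjusted p = 0.101), but passed both thresholds without control library 3 (-0.86, adjusted p = 0.0218; corrected -0.84, adjusted p = 0.043). Cers5, with 25.7, 24.1 and 22.0 against 19.7, 18.3 and 18.4 CPM, was lower only after correction (-0.35, adjusted p = 0.191; corrected -1.15, SE 0.22, adjusted p = 0.0059), and this call held without each library in turn. Cers3, the synthase of ultra-long-chain ceramides in skin, had 0 reads in the controls and 2, 4 and 1 reads in the libraries labelled knockout.

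The last step of ceramide synthesis is carried out by Degs1, which desaturates dihydroceramide, and Degs2, which can also hydroxylate it to phytoceramide and is abundant in the intestine. Degs2 (ENSMUSG00000021263.11, chromosome 12, 108678711 to 108702315) had 584, 401 and 332 CPM in the controls and 122, 151 and 166 CPM in the libraries labelled knockout. The lowest control lay far above the highest library labelled knockout, and the mean was 439 ± 130 CPM (SD, n = 3) against 146 ± 22.1 CPM (SD, n = 3). Degs2 was lower in both fits (-1.59, SE 0.26, adjusted p = 0.000431; corrected -0.93, SE 0.21, adjusted p = 0.0104) and without any library, with uncorrected values of -1.83 to -1.30 and corrected values of -1.05 to -0.74. Of its exonic bases 10.8% are shared with Evl on the opposite strand. Degs1 had 14.1, 20.3 and 23.3 against 33.2, 27.0 and 25.9 CPM, with 0.58 uncorrected (adjusted p = 0.0682) and a value of the opposite sign after correction (-0.62, SE 0.19, adjusted p = 0.0382). Without control library 3, Degs1 was called higher uncorrected (0.70, adjusted p = 0.0335). The corrected call of Degs1 held without control library 1 only, and the adjusted p lay from 0.0645 to 0.14 without any other library. With the longest transcript the Degs1 corrected log2 fold change was -0.33 (adjusted p = 0.228).

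The promoters of the desaturase genes are shown because both act on dihydroceramide and Degs2 kept its call under every omission of a library. They were taken from RefSeq on GRCm38.p6 and span the transcription start, 5′ to 3′ on the minus strand. Capitals mark the core of the hypoxia response element that HIF proteins bind, searched as ACGTG or GCGTG on both strands, with overlapping matches counted. The Degs2 promoter lies at chr12:108702257-108702556 and held 0 matches, and that of Degs1 at chr1:182282146-182282445 held 3, of which the palindrome CACGTG gives a match on each strand.
Degs2: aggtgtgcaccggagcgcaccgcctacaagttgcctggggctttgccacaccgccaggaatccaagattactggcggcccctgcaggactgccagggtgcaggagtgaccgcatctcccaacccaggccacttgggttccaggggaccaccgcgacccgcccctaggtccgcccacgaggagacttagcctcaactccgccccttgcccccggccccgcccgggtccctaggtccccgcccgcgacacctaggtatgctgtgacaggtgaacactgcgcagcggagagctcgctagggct
Degs1: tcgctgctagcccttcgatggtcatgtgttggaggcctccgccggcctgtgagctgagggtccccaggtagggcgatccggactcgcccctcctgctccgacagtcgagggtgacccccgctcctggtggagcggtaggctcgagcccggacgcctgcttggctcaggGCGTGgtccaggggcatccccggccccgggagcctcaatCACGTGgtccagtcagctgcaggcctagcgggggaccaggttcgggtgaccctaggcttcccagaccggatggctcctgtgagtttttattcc
Of the 37 members 35 had at least 1 RefSeq promoter, and 26 of these 35 genes (74.3%) held the motif in at least 1. A share by gene was not made for other genes, and a gene with more promoters has more places for a match. Of the 50 promoters of members 34 held it (68.0%), against 59.6% of the 14078 promoters of tested genes and 43.8% of all 32851 promoters. Some of the 50 belong to the same gene and overlap, as for Sphk1, and the difference was not tested. Their median GC content was 60.2%, against 60% and 52.7%. A match is a description of the letters in the window and does not show binding.

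**Figure D3:**
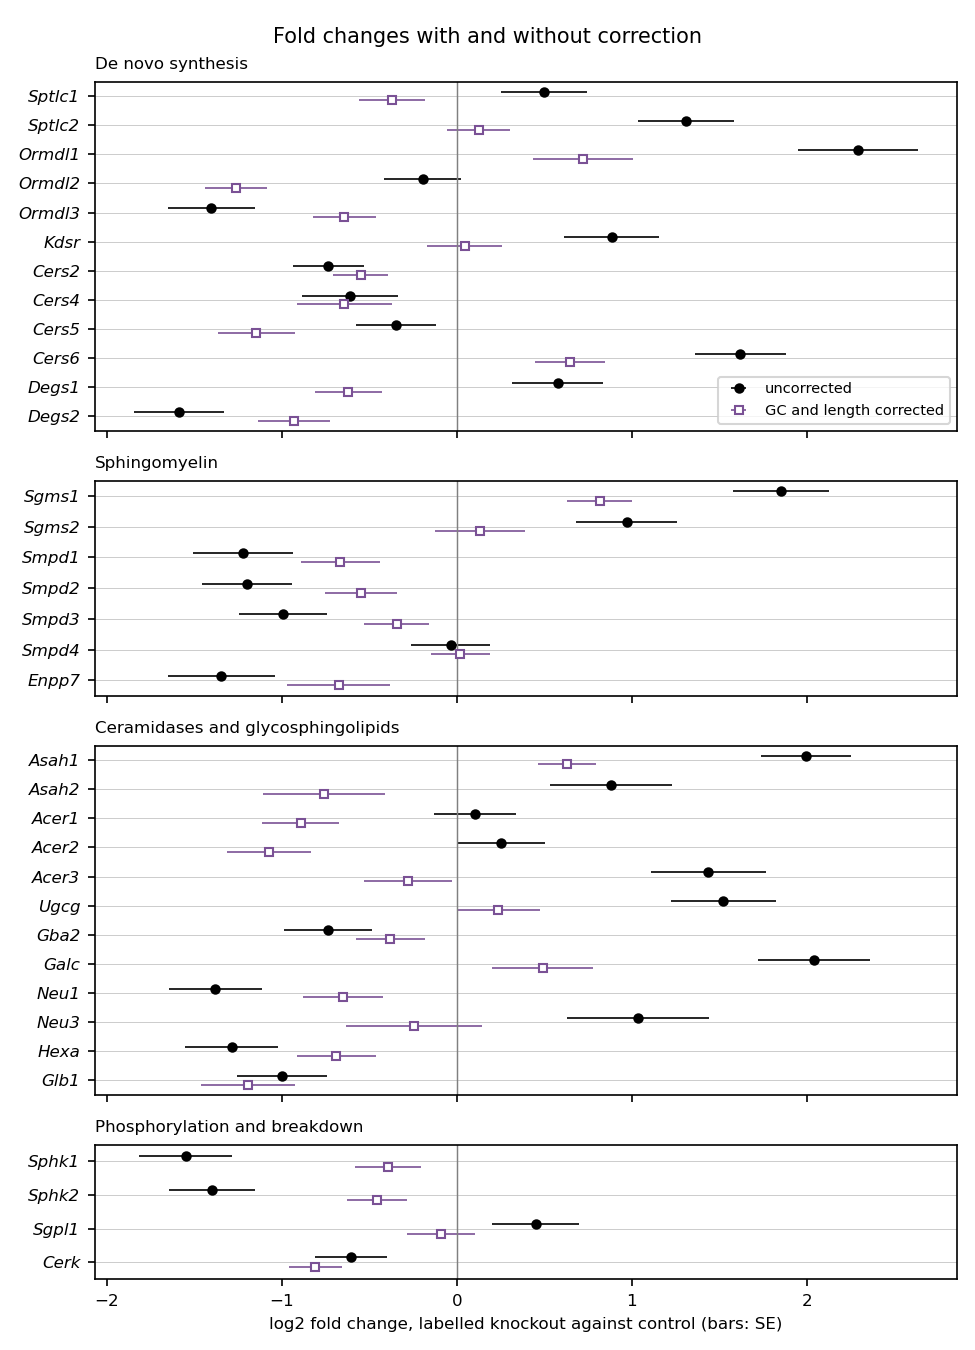
Log2 fold change, libraries labelled knockout against controls, of the 35 members before (filled circles) and after (open squares) correction for GC content and length; bars are the standard error. Degs2 and Glb1 lie below 0 in both fits, at -1.59 and -0.93 and at -1.0 and -1.19, while Degs1 changes sign from 0.58 to -0.62.

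In sphingomyelin metabolism all 7 listed genes were tested. Uncorrected, 2 were higher (28.6%, against 37.2% of all tested genes) and 4 lower (57.1%, against 29.7%). Corrected, 1 was higher (14.3%, against 14.3%) and 6 were not called, while 15.6% of all tested genes were lower. The median log2 fold change was -0.99 uncorrected and -0.34 corrected. Before correction the synthases Sgms1 and Sgms2 were higher, and of the 5 genes that cleave sphingomyelin 4 were lower and Smpd4 was not called. No test of the difference between these genes was made. Sgms1 (ENSMUSG00000040451.18, chromosome 19, 32122727 to 32389714), the Golgi sphingomyelin synthase, had 5.68, 6.25 and 9.28 CPM in the controls and 26.2, 24.5 and 25.9 CPM in the libraries labelled knockout. No library of one group came near the other, and Sgms1 was higher in both fits (1.85, SE 0.27, adjusted p = 0.000293; corrected 0.82, SE 0.18, adjusted p = 0.0114). It missed the corrected threshold without control library 2 (0.77, adjusted p = 0.0543) and with the longest transcript (0.41, adjusted p = 0.165). Sgms2, the plasma membrane synthase, had 21.4, 23.7 and 32.4 against 40.8, 40.6 and 70.7 CPM and was higher without correction only (0.97, SE 0.29, adjusted p = 0.0105; corrected 0.13, adjusted p = 0.729), and not without knockout-labelled library 3 (0.64, adjusted p = 0.0725).

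The sphingomyelinases release ceramide from sphingomyelin. Enpp7, the secreted and brush border enzyme that acts on dietary sphingomyelin, had the highest level per kilobase of transcript among the members in the controls, at 419 CPM per kb, ahead of Cers2 at 345, Degs2 at 341 and Sgpl1 at 322 CPM per kb. By the longest transcript Enpp7 was again highest at 358 CPM per kb, followed by Degs2 at 254, Hexa at 167 and Cers2 at 126, with Sgpl1 at 56.2 CPM per kb. Its libraries held 901, 546 and 620 CPM in the controls and 168, 371 and 274 CPM in those labelled knockout, without overlap. Enpp7 was lower without correction (-1.35, SE 0.31, adjusted p = 0.00257), and after correction its value was -0.68 (SE 0.30, adjusted p = 0.115). Smpd3, a neutral sphingomyelinase, had 528, 435 and 334 against 166, 234 and 252 CPM (-0.99, adjusted p = 0.00437; corrected -0.34, adjusted p = 0.195). Smpd1, the lysosomal acid sphingomyelinase (-1.22, adjusted p = 0.0029; corrected -0.66, adjusted p = 0.0532), and Smpd2, another neutral enzyme (-1.20, adjusted p = 0.00183; corrected -0.55, adjusted p = 0.0712), were also lower without correction only. Both passed the corrected threshold without control library 3 (Smpd1 -0.85, adjusted p = 0.0209; Smpd2 -0.71, adjusted p = 0.0345). Smpd2 shares 20.3% of its exonic bases with Mical1 on the opposite strand. Smpd4 was not called in either fit (-0.03, adjusted p = 0.901; corrected 0.02, adjusted p = 0.937).

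The summed levels of villus enterocyte markers, not corrected for GC content, were below those of the controls. Uncorrected, Enpp7 and 3 other sphingomyelinase genes were lower too, while Sgms1, Sgms2 and the brush border gene Asah2 were higher. After correction none of these sphingomyelinase genes was called, nor were Sgms2 and Asah2, the latter at -0.76. The summed level of the 8 markers was 18776 to 28652 CPM in the controls and 9033 to 10675 CPM in the libraries labelled knockout, with Alpi overlapping (1232 to 2413 against 618 to 1239.9 CPM), that of 5 ileal markers 2105 to 3497 and 682 to 1685 CPM, and that of 5 proximal markers 3715 to 3858 and 1944 to 2645 CPM. Crypt stem and Paneth cell markers, 8 in number, summed to 3123 to 6180 and 5123 to 15006 CPM. All of these markers were detected, and their part in the results was not tested. In bulk samples fewer cells of a type and less RNA per cell cannot be told apart.

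Among the ceramidases and the genes of glycosphingolipids, all 12 were tested. Uncorrected, 6 were higher (50%, against 37.2% of all tested genes) and 4 lower (33.3%, against 29.7%). Corrected, 1 was higher (8.33%, against 14.3%) and 4 lower (33.3%, against 15.6%). The median log2 fold change was 0.57 uncorrected and -0.52 corrected. Asah1 was higher and Hexa and Glb1 were lower in both fits. Asah1 (ENSMUSG00000031591.14, chromosome 8, 41340197 to 41374773), the acid ceramidase of the lysosome, had 12.1, 11.9 and 16.1 CPM in the controls and 51.7, 63.8 and 44.3 CPM in the libraries labelled knockout. The groups did not overlap, and the gene was higher in both fits (1.99, SE 0.26, adjusted p = 0.000195; corrected 0.63, SE 0.16, adjusted p = 0.0201). It missed the corrected threshold without control library 2 (0.66, adjusted p = 0.0605), knockout-labelled library 1 (0.67, adjusted p = 0.0677) or knockout-labelled library 2 (0.58, adjusted p = 0.0889).

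Asah1 was the ceramidase called higher in both fits. Uncorrected, Asah2 and Acer3 were higher too, and the difference between the ceramidases was not tested. Asah2, the neutral ceramidase of the brush border, had 99.5, 38.8 and 63.1 CPM in the controls and 103, 172 and 96.8 CPM in the libraries labelled knockout, with overlap. It was higher uncorrected (0.88, SE 0.35, adjusted p = 0.0428), but not without control library 2 (0.53, adjusted p = 0.229), control library 3 (0.75, adjusted p = 0.177) or knockout-labelled library 2 (0.58, adjusted p = 0.176), and its corrected value was -0.76 (adjusted p = 0.136). The alkaline ceramidases Acer1 and Acer2 had nearly level raw values, of 26.1, 21.3 and 26.0 against 22.4, 28.8 and 27.7 CPM and of 13.3, 15.1 and 14.3 against 15.8, 14.7 and 20.5 CPM. Neither was called uncorrected, with 0.10 (adjusted p = 0.708) for Acer1 and 0.25 (adjusted p = 0.383) for Acer2. After correction Acer1 (-0.89, SE 0.22, adjusted p = 0.0165) and Acer2 (-1.07, SE 0.24, adjusted p = 0.0109) were lower, and both missed the threshold without knockout-labelled library 1 (Acer1 -0.75, adjusted p = 0.0786; Acer2 -0.98, adjusted p = 0.0543). Acer1 shares 14.1% of its exonic bases with a gene on the opposite strand, and with the longest transcript the Acer1 corrected log2 fold change was -0.46 (adjusted p = 0.142). Acer3, with 3.71, 4.32 and 7.48 against 11.7, 16.8 and 13.7 CPM, was higher uncorrected only (1.44, adjusted p = 0.00256; corrected -0.28, adjusted p = 0.431).

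Glycosphingolipids start with the glucosylation of ceramide by Ugcg and are taken apart in the lysosome. Ugcg had 23.2, 16.7 and 37.3 against 65.2, 72.4 and 84.9 CPM and was higher uncorrected only (1.52, SE 0.30, adjusted p = 0.00104; corrected 0.24, adjusted p = 0.481). Gba2, the non-lysosomal glucosylceramidase, was lower uncorrected (-0.74, adjusted p = 0.0217; corrected -0.38, adjusted p = 0.172), but not without control library 1 (-0.51, adjusted p = 0.0784), knockout-labelled library 1 (-0.75, adjusted p = 0.0674) or knockout-labelled library 2 (-0.66, adjusted p = 0.0967). Galc, the lysosomal galactosylceramidase, was the member with the lowest level per kilobase among those tested, at 0.391 CPM per kb in the controls. With 44, 45 and 50 reads in the controls and 278, 175 and 215 in the libraries labelled knockout, it was higher uncorrected only (2.04, SE 0.32, adjusted p = 0.000363; corrected 0.49, adjusted p = 0.225). Hexa (ENSMUSG00000025232.8, chromosome 9, 59539540 to 59565109), the alpha subunit of the hexosaminidase that degrades ganglioside GM2, had 456, 302 and 239.8 CPM in the controls and 115, 134 and 159.8 CPM in the libraries labelled knockout. Its groups did not overlap and it was lower in both fits (-1.29, SE 0.27, adjusted p = 0.00145; corrected -0.69, SE 0.23, adjusted p = 0.0461). With the longest transcript the corrected value of Hexa was -0.40 (adjusted p = 0.198). Hexa missed the corrected threshold without control library 1 (-0.44, adjusted p = 0.109), control library 2 (-0.80, adjusted p = 0.066), knockout-labelled library 1 (-0.58, adjusted p = 0.155) or knockout-labelled library 2 (-0.68, adjusted p = 0.12), and 12.8% of its exonic bases are shared with Tmem202 on the opposite strand.

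Glb1 (ENSMUSG00000045594.10, chromosome 9, 114401076 to 114474898), the lysosomal beta-galactosidase that acts on ganglioside GM1, had 141, 105 and 84.5 CPM in the controls and 47.3, 49.1 and 69.2 CPM in the libraries labelled knockout. The lowest control lay above the highest library labelled knockout, and the means were 110.4 ± 28.7 CPM (SD, n = 3) and 55.2 ± 12.1 CPM (SD, n = 3). Glb1 shares 5.49% of its exonic bases with Tmppe on the same strand. Glb1 was lower in both fits (-1.0, SE 0.26, adjusted p = 0.00508; corrected -1.19, SE 0.27, adjusted p = 0.0114). Without each library in turn it stayed called, at -1.23 to -0.76 uncorrected and -1.40 to -0.88 corrected. With scaling by total counts the Glb1 log2 fold change was -0.50 (adjusted p = 0.0589). Neu1, the lysosomal sialidase, had 158, 88.9 and 107 against 37.4, 44.3 and 54.2 CPM and was lower uncorrected (-1.38, SE 0.27, adjusted p = 0.000962). Its corrected value of -0.65 (adjusted p = 0.0575) passed the threshold without control library 2 (-0.85, adjusted p = 0.0335) or knockout-labelled library 3 (-0.81, adjusted p = 0.0448).

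Neu3, the plasma membrane sialidase that acts on gangliosides and is known as a HIF2α target in the mouse intestine, was among the least abundant members. It had 38, 122 and 81 reads in the controls and 262, 146 and 167 in the libraries labelled knockout, or 1.32, 3.93 and 2.36 against 6.36, 4.31 and 4.95 CPM. Control library 2 came close to the lowest library labelled knockout, and the gene was higher uncorrected (1.04, SE 0.41, adjusted p = 0.0391). It missed the uncorrected threshold without control library 1 (0.77, adjusted p = 0.113), control library 3 (0.98, adjusted p = 0.106) or knockout-labelled library 1 (0.88, adjusted p = 0.118), with -0.25 after correction (SE 0.39, adjusted p = 0.66). The RefSeq promoters of Glb1, the lysosomal member called lower in both fits and without each library in turn, and of Neu3 are shown on the same terms. That of Glb1 lies on the plus strand at chr9:114400828-114401127 and that of Neu3 on the minus strand at chr7:99828368-99828667.
Glb1: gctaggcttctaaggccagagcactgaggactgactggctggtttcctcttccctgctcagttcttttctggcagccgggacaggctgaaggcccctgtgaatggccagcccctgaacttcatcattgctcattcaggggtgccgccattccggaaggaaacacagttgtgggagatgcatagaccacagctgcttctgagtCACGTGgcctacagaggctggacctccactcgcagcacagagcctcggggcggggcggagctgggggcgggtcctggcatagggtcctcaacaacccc
Neu3: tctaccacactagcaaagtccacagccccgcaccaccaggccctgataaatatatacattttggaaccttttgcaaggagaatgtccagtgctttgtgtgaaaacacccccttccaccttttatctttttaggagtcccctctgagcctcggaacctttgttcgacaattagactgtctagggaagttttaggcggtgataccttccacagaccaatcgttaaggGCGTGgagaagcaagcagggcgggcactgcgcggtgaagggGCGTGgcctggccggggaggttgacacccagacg
Each held 2 matches to the motif, in Glb1 as the palindrome CACGTG and in Neu3 as separate GCGTG stretches.

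The genes of phosphorylation and breakdown numbered 4 and all were tested. Uncorrected, 3 were lower (75%, against 29.7% of all tested genes) and 1 was not called. The 3 lay in the GC range of the lower members, where 57.7% of all tested genes were lower. Corrected, 1 was lower (25%, against 15.6%) and 3 were not called. The median log2 fold change was -1.0 uncorrected and -0.42 corrected. Cerk (ENSMUSG00000035891.16, chromosome 15, 86139128 to 86186141), which phosphorylates ceramide, had 103, 117 and 123 CPM in the controls and 70.2, 73.2 and 82.5 CPM in the libraries labelled knockout. The controls lay above all libraries labelled knockout, and Cerk was lower in both fits (-0.60, SE 0.21, adjusted p = 0.0217; corrected -0.81, SE 0.15, adjusted p = 0.00518). The corrected call held without each library in turn, whereas the uncorrected one was lost without knockout-labelled library 1 (-0.55, adjusted p = 0.111) or 2 (-0.58, adjusted p = 0.0993). With the longest transcript the corrected value of Cerk was -0.11 (adjusted p = 0.685).

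The sphingosine kinases make sphingosine 1-phosphate, a signalling lipid. Sphk1 had 68.0, 48.2 and 43.4 CPM in the controls and 15.5, 17.0 and 22.1 CPM in the libraries labelled knockout, and Sphk2 had 434, 313 and 262 against 121, 113 and 147 CPM. Neither gene's groups overlapped. Both were lower uncorrected (Sphk1 -1.55, SE 0.27, adjusted p = 0.000531; Sphk2 -1.40, SE 0.25, adjusted p = 0.00059), and neither after correction (Sphk1 -0.39, adjusted p = 0.14; Sphk2 -0.45, adjusted p = 0.0725). Sphk2 shares 12.96% of its exonic bases with Dbp and 8.97% with Rpl18 on the opposite strand. Sgpl1, the lyase that cleaves sphingosine 1-phosphate irreversibly, had overlapping levels of 216, 196 and 324 against 276, 336 and 392 CPM. It was not called (0.45, adjusted p = 0.128; corrected -0.09, adjusted p = 0.758), but passed the uncorrected threshold without control library 3 (0.64, adjusted p = 0.0285).

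Within enzyme families the shares of reads per length shifted between members. Of the reads per length of both desaturases, Degs2 held 97.8%, 95.6% and 94.0% in the controls and 80.1%, 85.9% and 87.5% in the libraries labelled knockout. Of those of the ceramide synthases, Cers2 held 83.2%, 87.1% and 85.0% against 65.2%, 68.1% and 72.0%, and Cers6 5.49%, 3.76% and 7.01% against 24.8%, 23.5% and 19.1%. With the longest transcript the mean shares of Cers6 were 2.46% and 11.3%, against 5.42% and 22.4% here. Ormdl3 made up 51.4% ± 10.02 (SD, n = 3) of its family in the controls and 30.3% ± 1.27 (SD, n = 3) in the libraries labelled knockout. That share is uncertain, since most of the rest was Ormdl2 (47.9% and 64.3%), whose exons overlap those of Dnajc14. The paired genes in these families differ in GC content, with 55.0% for Degs2 and 46.9% for Degs1.

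The sphingomyelin synthases and the ceramidases Asah1 and Asah2 are closer in GC content, at 47.9% for Sgms1 and 47.7% for Sgms2 and at 43.8% for Asah1 and 45.3% for Asah2. Their median transcript lengths differ, at 1595 bases for Sgms1 and 638 for Sgms2 and at 884 for Asah1 and 3261 for Asah2. The shares use counts without the correction for GC content and length. Sgms2 held 90.4%, 90.5% and 89.7% of its pair in the controls and 79.6%, 80.5% and 87.2% in the libraries labelled knockout. Asah2 held 69.1%, 47.0% and 51.4% against 35.1%, 42.2% and 37.2%. The share of Sphk2 was 74.6% ± 0.72 (SD, n = 3) in the controls and 76.6% ± 1.68 (SD, n = 3) in the libraries labelled knockout. The groups lay apart in the 6 shares with reads in both members. No such count was made for other gene families, and the levels of 72.6% of all tested genes lay apart. Each gave p = 0.10 in a two-sided exact permutation test over libraries (adjusted p = 0.10 over the 6), the smallest value that 3 against 3 libraries allow, so none can pass the threshold.

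**Figure D4:**
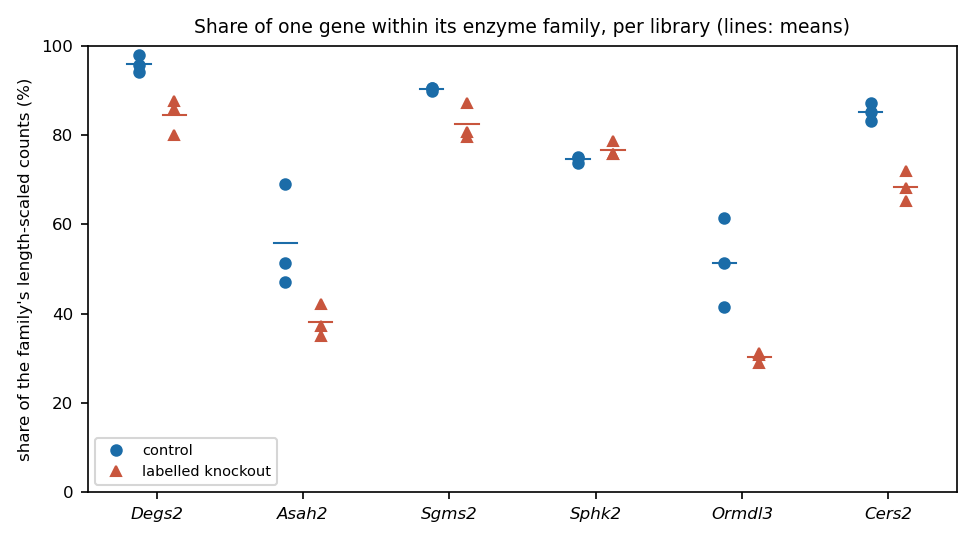
Share of length-scaled reads that 1 gene held within its enzyme family, in percent, in each control library (circles) and each library labelled knockout (triangles), with the group means as lines. Degs2, Asah2, Sgms2, Ormdl3 and Cers2 lie lower in the libraries labelled knockout, Cers2 at 65.2% to 72.0% against 83.2% to 87.1%, and Sphk2 lies slightly higher.

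A further list of 37 genes of sphingolipid transport, elongation, gangliosides, lysosomal cofactors and sphingosine 1-phosphate signalling had 34 tested. Uncorrected, 12 were higher (35.3%, against 37.2% of all tested genes) and 15 lower (44.1%, against 29.7%), with a median log2 fold change of -0.12. Corrected, 3 were higher (8.82%, against 14.3%) and 6 lower (17.6%, against 15.6%), with a median of -0.23. Both fits called 3 of the 34 higher and 5 of the 34 lower, against 12.4% and 9.91% of all tested genes. Sgpp2, a phosphatase of sphingosine 1-phosphate, had 32.1, 33.4 and 54.1 CPM in the controls and 149.9, 166 and 168 CPM in the libraries labelled knockout and was higher (2.02, adjusted p = 0.000194; corrected 0.70, adjusted p = 0.0128). Nsmaf, an adaptor of neutral sphingomyelinase activation, was higher, from 3.88, 3.09 and 3.78 CPM to 35.9, 26.0 and 12.1 CPM (2.78, adjusted p = 0.00022; corrected 1.52, adjusted p = 0.0107). Aldh3a2, the fatty aldehyde dehydrogenase that acts after Sgpl1, was higher at 173 to 199 CPM against 39.0 to 106 CPM (1.59, adjusted p = 0.00283; corrected 0.86, adjusted p = 0.0353). After correction Sgpp2 missed the threshold without control library 2 (0.65, adjusted p = 0.0639) or knockout-labelled library 2 (0.69, adjusted p = 0.0509), and Aldh3a2 without any library but control library 3, with adjusted p from 0.0697 to 0.128.

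On the lower side of this list, B4galt5, a lactosylceramide synthase, had 354, 292 and 326 CPM in the controls and 104, 134 and 126 CPM in the libraries labelled knockout (-1.42, adjusted p = 0.000312; corrected -0.69, adjusted p = 0.0192). Gal3st1, which makes sulfatide, had 162, 106 and 84.4 against 32.3, 35.2 and 43.5 CPM (-1.67, adjusted p = 0.00046; corrected -0.59, adjusted p = 0.0448). Corrected, B4galt5 was not called without knockout-labelled library 1 (-0.58, adjusted p = 0.0901) or 2 (-0.74, adjusted p = 0.0519), and the call of Gal3st1 held without knockout-labelled library 3 only, with adjusted p from 0.051 to 0.16 otherwise. Elovl1 extends the very long acyl chains used by Cers2. Its libraries held 363, 249 and 219 against 88.5, 117 and 113 CPM (-1.38, adjusted p = 0.000673; corrected -1.10, adjusted p = 0.00774). Called in both fits and without each library in turn were 1 higher gene, Nsmaf, and 2 lower genes, Elovl1 and Gm2a. Of all genes, 5.7% met this criterion as higher and 3.38% as lower. Gm2a, named here after its values were seen, encodes the activator that presents GM2 to hexosaminidase, the enzyme of Hexa. It had 50.3, 49.4 and 40.1 against 27.0, 25.4 and 28.3 CPM (-0.79, SE 0.22, adjusted p = 0.00833; corrected -2.09, SE 0.24, adjusted p = 0.00129).

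Cells other than epithelium were looked for by their markers. All 10 T lymphocyte markers were detected, at a summed 399 to 1140 CPM in the controls and 398 to 2492 CPM in the libraries labelled knockout. B and plasma cell markers summed to 220 to 479 and 129 to 172 CPM, with 6 of 7 reaching 1 CPM in any library. Markers of macrophages and dendritic cells summed to 23.6 to 48.7 and 40.4 to 77.1 CPM, those of fibroblasts and muscle to 7.31 to 9.76 and 5.26 to 10.3 CPM, and those of endothelium, with Emcn at 0, to 3.46 to 4.78 and 4.77 to 6.32 CPM. The part of these cells in the results on sphingolipid genes was not tested.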

How the data were processed

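The table deposited by the authors holds unnormalised read counts of 55298 Ensembl genes in 6 libraries. The submitters' processing notes name Subread 1.6.1, STAR 2.6.1c, cutadapt 1.18, SAMtools 1.8 and FastQC 0.11.8 and the build GRCm38 (mm10). As for strand and reads mapping to several places, the settings were not given in the sources used here, and genes with overlapping exons are uncertain. Normalised and log2 tables were not used.

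Names, positions, GC content and length (medians over transcripts) came from GENCODE M21, which matched 55117 identifiers, and promoters from RefSeq on GRCm38.p6. Counts were tested with edgeR 4.0.16 in R 4.3.3 (TMM, robust quasi-likelihood test) after filterByExpr (minimum count 10, minimum total 15), with Benjamini-Hochberg adjusted p below 0.05 over 15143 genes. The corrected fit, over 15135 genes, used an offset from natural splines with 6 df for GC content and 5 df for log2 length. The splines were fitted, per library, to log2 CPM (prior count 2) minus the mean over libraries. Standard errors follow from the fold change and its F statistic. CPM are TMM-scaled. Shares used counts divided by length, and an exact permutation test (scipy 1.17.1). The limit that a count of 0 allows is 3 reads, and covers counting error only. The steps were tested on simulated data.

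Members and lists were chosen with earlier results of these data known. Every member was named or counted. Full values were due for members called in both fits and Neu3, from the further list for the 6 smallest uncorrected p among genes called in both fits in 1 direction, and for Epas1. Alternatives were other scalings, DESeq2 1.42.0, limma 3.58.1 (voom with sample weights), no robust estimation, other filters, GC offsets, the GC slope of each library as a covariate, the longest transcript, and each library left out.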

Additional observations from a re-analysis of the deposited data

How the results depend on the processing

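The calls of sphingolipid genes depended most on the handling of GC content. The 12 higher members became 3 with the offset for GC content and length and 3 with that for GC content alone. Over all tested genes, 5636 higher genes became 2162 and 2250. With the GC slope of each library as a covariate in the edgeR quasi-likelihood fit, 0 members were higher and 0 lower, in place of 14, and 355 of all tested genes had an unadjusted p below 0.05. Of all 15143 tested genes, 0 were called under this covariate. The slopes of the groups do not overlap, so this fit cannot separate slope from group, and no conclusion is drawn from it. The sign changes given below for this covariate had SEs of 0.68 to 1.01. Uncorrected log2 fold changes that changed sign were Sptlc1 -0.37, Degs1 -0.62, Smpd4 0.020, Asah2 -0.76, Acer1 -0.89, Acer2 -1.07, Acer3 -0.28, Neu3 -0.25 and Sgpl1 -0.089 with the GC content and length offset, Sptlc1 -0.56, Sptlc2 -0.037, Degs1 -0.63, Sgms2 -0.078, Smpd4 0.050, Asah2 -0.53, Acer1 -0.74, Acer2 -0.81, Acer3 -0.049 and Sgpl1 -0.22 with the GC content offset, and Sptlc1 -0.40, Sptlc2 -1.08, Ormdl3 0.33, Kdsr -0.35, Cers4 1.63, Cers5 0.12, Degs1 -0.71, Degs2 0.13, Smpd1 1.21, Smpd2 0.73, Smpd3 0.57, Acer1 -0.21, Acer3 -1.08, Ugcg -0.40, Gba2 0.77, Hexa 0.80, Glb1 0.98, Sphk1 0.0064, Sphk2 0.37 and Sgpl1 -0.90 with the GC slope covariate. Under total count scaling the sign changed for Ormdl2 0.27, Cers5 0.14 and Smpd4 0.43, and that of Acer1 changed with DESeq2 size factors (-0.025) and the DESeq2 Wald test (-0.059). Under these scalings and this test the members concerned were ones not called without correction. Corrected values that changed sign were Sptlc2 -0.037, Sgms2 -0.078 and Neu3 0.011 with GC content alone, and Sptlc2 -0.23, Kdsr -0.71, Sgms2 -0.54, Smpd4 -0.52, Gba2 0.025 and Neu3 0.12 with the longest transcript, which also ended 7 corrected calls and gave 5 (Ormdl1, Cers4, Smpd2, Neu1 and Sphk1). Leaving out each library in turn gave 0 to 4 higher and 5 to 13 lower members after correction. Of the 15431 to 15700 genes tested in these fits, 1069 to 2025 were higher and 1121 to 2290 lower. The values that changed sign without a library ran from -0.16 to 0.057 for Smpd4 and -0.046 to 0.22 for Acer1 uncorrected, and from -0.14 to 0.15 for Kdsr, -0.25 to 0.31 for Sgms2, -0.11 to 0.11 for Smpd4, -0.0026 to 0.44 for Ugcg, -0.48 to 0.31 for Neu3 and -0.24 to 0.052 for Sgpl1 corrected. The cause was not tested. Of the log2 fold changes and family shares under all alternatives, 731 kept their direction and side of the threshold, 64 changed sign, 98 lost and 30 gained a call. No alternative changed the direction of a family share, but these were only the longest transcript, no division by length, and each library left out. None of them handled GC content. With the groups apart, leaving out a library could not change a direction, nor could the choice of length for a pair of genes. No conclusion is drawn from this. No paired analysis was possible because the labels give no replicate numbers.

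With 3 libraries a group, a small change cannot be told from the spread, and Sptlc3 and Cers3 were too thinly covered to test. Levels near 1 CPM, as for Galc and Neu3, rest on few reads.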
